A study of Equus asinus with 3 samples.

Results

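SERPIN and SPINK genes encode protease inhibitors, and they are described here in single-cell transcriptomes of the donkey testis and epididymis. Every feature whose name starts with SERPIN or SPINK was taken, which gave 32 genes, 8 SPINK and 24 SERPIN, of the 34267 features listed over the 3 libraries. All 32 were listed and had at least 1 UMI (unique molecular identifier, a counted RNA molecule) in each library. The 3 libraries came from the testis, the caput (the head of the epididymis, which sperm enter first) and the corpus (its body), with 1 library per tissue. The series' design text names 3 sexually mature male donkeys, and no source used here says which of them gave which library. The labels give no treatment, genotype or breed; they call the testis library germ cells and both epididymal libraries somatic cells, and describe no sort. The tissue could be held in storage solution for up to 48 h before digestion with collagenase IV and DNase I.

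Serpins are suicide inhibitors: the protease cuts an exposed loop of the serpin and stays covalently trapped. A few serpins, such as the collagen chaperone SERPINH1, inhibit no protease. SPINK proteins carry Kazal domains, small disulfide-bonded folds that block trypsin-like serine proteases by sitting tightly in the active site. In the male tract such inhibitors are known for holding in check acrosin and other proteases that sperm carry, and for guarding the epididymal lumen. In human and mouse, SPINK2 is an acrosomal protein of spermatids that inhibits acrosin.

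After quality control 8485 testis, 9464 caput and 9592 corpus cells remained, with median totals of 4675, 1144 and 371 UMIs per cell and 46539657, 13155125 and 4125598 UMIs in all. Cells were clustered within each library with the 32 genes left out of the variable genes, and a cluster was named "-like" only from marker genes, none of them a member. The testis library held late spermatocyte-like (825 cells), round spermatid-like (2731) and elongating spermatid-like cells (598), and 3796 germ cells whose stage stayed unnamed. The late spermatocyte-like name rested on 4 of 14 markers. Late spermatocyte markers summed to 4484 CPM there and 3795 CPM in the unnamed stage, and early spermatocyte markers to 4131 and 4262 CPM. The caput library held 2624 luminal epithelial-like, 699 fibroblast-like, 429 macrophage-like and 852 T or NK-like cells, and the corpus library held 146, 3152, 600 and 896 of the same classes. The caput library also held germ cells, 55 elongating spermatid-like and 136 of several stages, although its label says somatic cells. Clusters led by very long genes held 4587 caput and 4763 corpus cells, and these carry no cell type name. With 1 library per tissue no test between tissues or classes was possible. Levels are UMIs summed over cells per 1000000 UMIs of the same cells (CPM), and 95% intervals, given in parentheses, cover counting error only. The rule for calling a gene higher, run over all features, asked for 50 UMIs or more in the higher group and for a ratio interval wholly past 2-fold.

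By UMIs, the family was dominated by one gene. SPINK2 accounted for 82.9% of all member UMIs in the testis, 86.9% in the caput and 55.8% in the corpus. Members together made up 0.155% of testis UMIs, 0.732% of caput UMIs and 0.196% of corpus UMIs. At least 200 UMIs in some library were reached by 13 members, namely SPINK2, SPINK4, SPINK5 and SPINK8 and the serpins SERPINB1, SERPINB6, SERPIND1, SERPINE2, SERPINF1, SERPINF2, SERPING1, SERPINH1 and SERPINI1. The other 19 had 10 to 326 UMIs over the 3 libraries, and the highest of their levels in any whole library was 30.5 CPM, for SERPINB9 in the corpus. Below, SPINK2, SPINK8 and SERPINF2 are described in the epididymal epithelium, then SERPINF1, SERPING1 and SERPINH1 in the stroma, and then SPINK2, SERPINB6, SERPINB1 and SPINK5 along the germ classes, although SERPINB1 and SPINK5 reached higher levels in other classes.

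**Figure D1:**
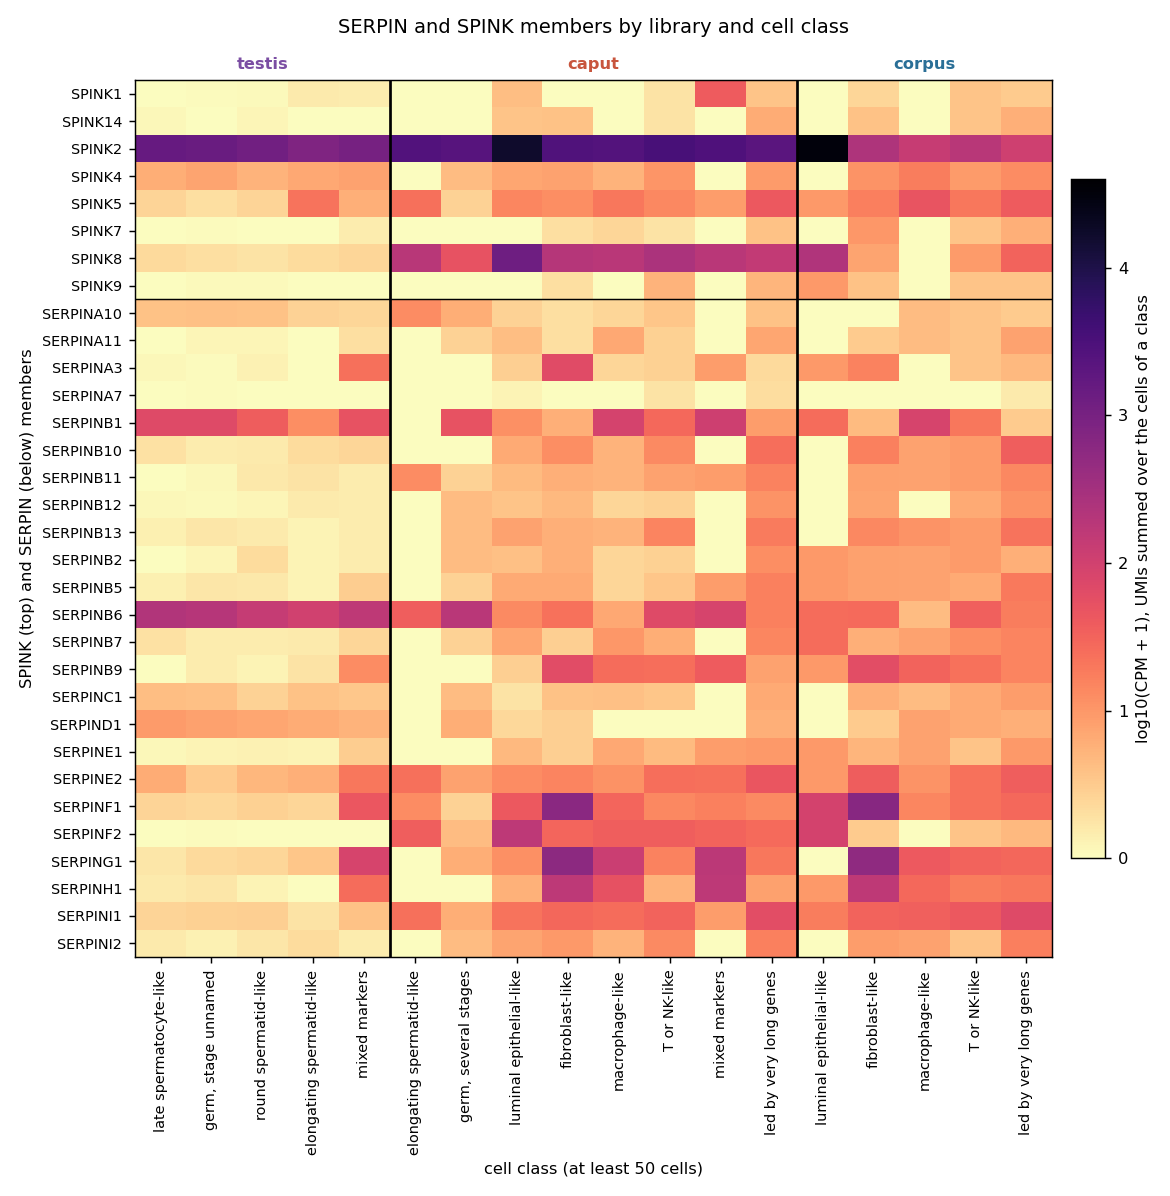
Level of each of the 32 genes, as log10(CPM + 1) of UMIs summed over cells (colour), in every cell class of at least 50 cells (columns), for the testis, caput and corpus libraries. SPINK2 is dark in every column and darkest in the luminal epithelial-like classes, whereas SERPINF1, SERPING1 and SERPINH1 stand out in the fibroblast-like classes, SERPINB6 in the germ classes, and SERPINB1 in germ and macrophage-like classes.

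SPINK2 gave more UMIs than nearly any other feature of the caput. It had 59650 UMIs in the testis, 83689 in the caput and 4503 in the corpus, that is 1282, 6362 and 1091 CPM, and ranked 69, 3 and 28 among all features of those libraries. A SPINK2 UMI was found in 96.1% of testis cells, 82.0% of caput cells and 7.07% of corpus cells. With every cell thinned to 298 UMIs these shares were 31.0%, 55.3% and 5.57%.

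Within the epididymis the level was highest in luminal epithelial-like cells, the secretory cells that line the duct. In the caput these cells had 16183 CPM of SPINK2 (60860 UMIs), and a UMI was found in 99.8% of them, with a median of 18 UMIs per cell. In the corpus the level in luminal epithelial-like cells was 32275 CPM (3858 UMIs), a UMI was found in 100% of the 146 cells, and the median was 21.5 UMIs per cell. The median cell thus gave 1.44% of its UMIs to SPINK2 in the caput and 3.18% in the corpus. The ratio of caput over corpus luminal level was 0.501 (0.485–0.518), so that corpus was higher by 1.99-fold (1.93–2.06), an interval that did not lie wholly beyond 2-fold. The lower level in caput luminal cells held for each of its 4 clusters: corpus over caput was 2.62-fold for cluster 2, 1.44-fold for cluster 4, 2.71-fold for cluster 7 and 2.08-fold for cluster 9. The summed level of immediate-early and stress genes, a sign of handling, was 1859 CPM in caput and 5789 CPM in corpus luminal epithelial-like cells, and its part in the difference was not tested.

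Outside the luminal class the 2 regions parted. Caput fibroblast-like, macrophage-like and T or NK-like cells had 2803, 2574 and 3444 CPM of SPINK2, against 235, 130 and 187 CPM in the same classes of the corpus. The median was 2 UMIs per cell in each of these caput classes and 0 in the corpus ones. A UMI was found in 77.8% of caput fibroblast-like, 79.5% of macrophage-like and 79.2% of T or NK-like cells, against 8.3%, 4.7% and 6.7% in the corpus; median totals per cell were 1259, 1332 and 1193 UMIs in the caput and 399.5, 439.5 and 362 UMIs in the corpus.

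In 3 caput classes the luminal inhibitors stood at similar fractions of their luminal levels. SPINK2 in caput fibroblast-like, macrophage-like and T or NK-like cells stood at 17.3%, 15.9% and 21.3% of its luminal level. SPINK8 stood at 16.2%, 14.5% and 20.7%, and SERPINF2 at 17.7%, 21.1% and 21.1%. DEFB119, a beta-defensin of the luminal cells and no member, stood at 16.9%, 15.1% and 19.6%. SPINK8 UMIs were 7.65% (7.42–7.88) of SPINK2 UMIs in luminal epithelial-like cells, 7.43% (6.59–8.36) in T or NK-like, 7.16% (6.20–8.24) in fibroblast-like and 6.95% (5.74–8.36) in macrophage-like cells. DEFB119 UMIs were 85.4% (81.5–89.4) of SPINK2 UMIs in T or NK-like cells, against 92.6% (91.6–93.7) in luminal epithelial-like cells, intervals that do not overlap. All 15 luminal markers measured had a UMI in each of these 4 classes, but so did all 15 fibroblast, macrophage and T or NK markers. Presence of a UMI therefore does not set the luminal list apart. The luminal list summed to 10920 CPM in caput luminal epithelial-like cells and to 1827, 1283 and 1937 CPM in the fibroblast-like, macrophage-like and T or NK-like cells. Free RNA in droplets gives UMIs of this kind, its part was not tested, and the levels outside the luminal class are not read as expression by those cells. In the corpus, SPINK2 in the same classes stood at 0.728%, 0.403% and 0.578% of its luminal level, and the luminal markers summed to 786, 410 and 387 CPM, against 33103 CPM in luminal epithelial-like cells. For SPINK8, which had 96 UMIs in the whole corpus, the proportion to SPINK2 differed between corpus classes. SPINK8 UMIs were 2.68% (1.21–5.15) of SPINK2 UMIs in corpus fibroblast-like cells, against 0.700% (0.461–1.02) in corpus luminal epithelial-like cells. In the clusters led by very long genes they were 29.1% (21.3–39.2). Corpus proportions of other luminal genes are not given here, so this difference is stated for SPINK8 only.

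SPINK8, another Kazal-type inhibitor, followed the same classes but differed most between the regions. It had 47 UMIs in the testis (1.01 CPM), 6178 in the caput (469.6 CPM) and 96 in the corpus (23.3 CPM). Luminal epithelial-like cells had 1237 CPM in the caput (4654 UMIs) and 226 CPM in the corpus (27 UMIs), a ratio of 5.48 (3.76–8.32). SPINK8 UMIs were 7.65% of SPINK2 UMIs in caput luminal cells and 0.700% (0.461–1.02) in corpus luminal cells.

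SPINK8 also varied within the caput. Its level was 2132 CPM in luminal cluster 4, 978 CPM in cluster 2, 848 CPM in cluster 9 and 377 CPM in cluster 7, which was led by CST11, LCN8 and PTGDS. Cluster 4 over cluster 7 was 5.65 (4.97–6.44) for SPINK8 and 1.88 (1.84–1.93) for SPINK2. The caput-over-corpus ratio of SPINK8 in luminal cells ran from 9.44 for cluster 4 to 1.67 (1.12–2.58) for cluster 7, so its size depended on which caput cluster was used.

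SERPINF2 encodes alpha-2-antiplasmin, the main inhibitor of plasmin, and is best known as a liver product. It had 1 UMI in the testis (0.021 CPM), 880 in the caput (66.9 CPM) and 22 in the corpus (5.33 CPM). Luminal epithelial-like cells held 167 CPM in the caput (627 UMIs) and 92 CPM in the corpus (11 UMIs), a ratio of 1.81 (1.01–3.65) that met the rule for neither side. Unlike SPINK8, it was lowest in cluster 2 (118 CPM) and highest in cluster 9 (211 CPM), a ratio of 1.79 (1.39–2.29). In the gene table of the donkey genome SERPINF2 lies next to SERPINF1, whose levels were highest in another cell class.

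**Figure D2:**
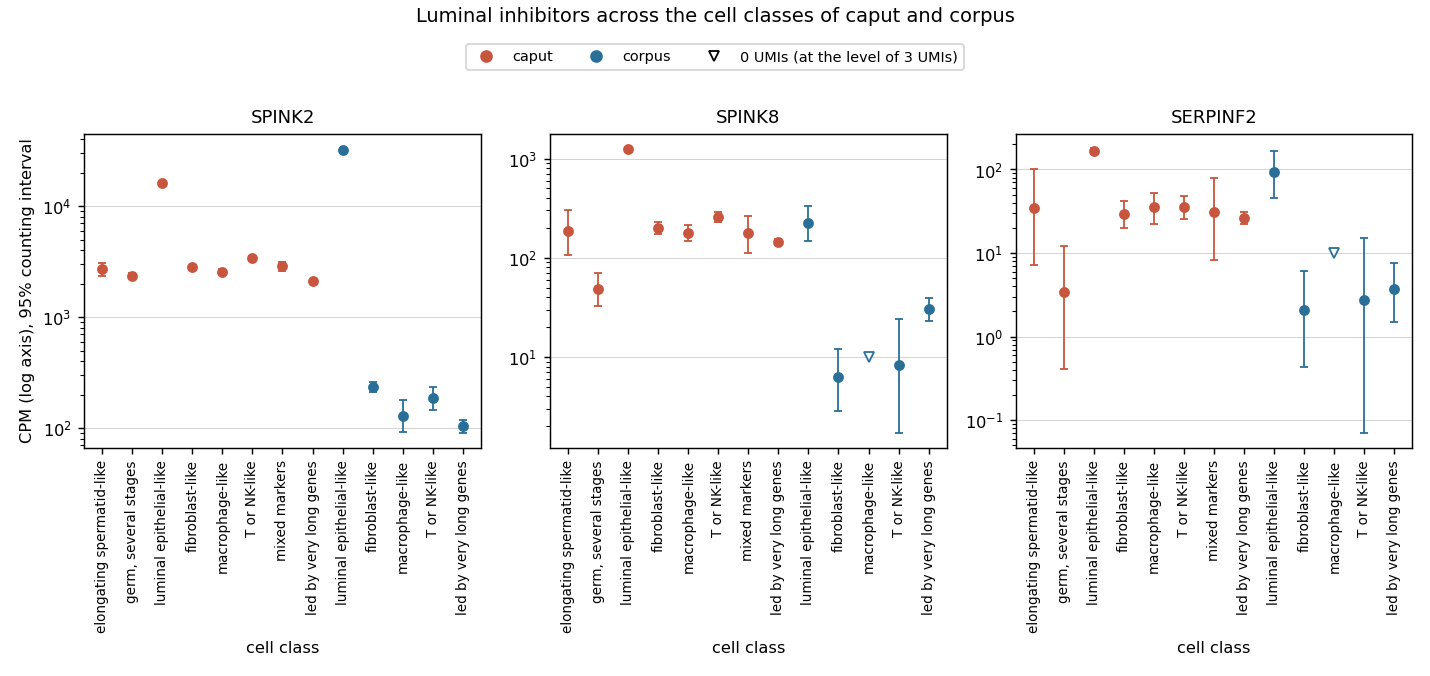
Level in CPM on a log axis of SPINK2, SPINK8 and SERPINF2 in each caput and corpus class of at least 50 cells, with 95% counting intervals; open triangles mark classes with 0 UMIs, drawn at the level of 3 UMIs. All 3 genes peak in the luminal epithelial-like class of both regions, and the remaining caput classes lie above the corpus ones for SPINK2.

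SERPINF1, SERPING1 and SERPINH1 were genes of the fibroblast-like cells in both regions. SERPINF1, the anti-angiogenic pigment epithelium-derived factor, had 155 UMIs in the testis (3.33 CPM), 888 in the caput (67.5 CPM) and 1028 in the corpus (249 CPM). Fibroblast-like cells had 593 CPM in the caput (623 UMIs) and 660 CPM in the corpus (944 UMIs). That was 14.3-fold the next highest named class in the caput and 7.18-fold in the corpus.

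SERPING1, the C1 inhibitor that restrains the complement proteases C1R and C1S, had 233 UMIs in the testis (5.01 CPM), 862 in the caput (65.5 CPM) and 828 in the corpus (200.7 CPM). Its level in fibroblast-like cells was 562 CPM in the caput (591 UMIs) and 523 CPM in the corpus (747 UMIs). In macrophage-like cells it was 117 CPM in the caput (80 UMIs) and 40.0 CPM in the corpus (12 UMIs), a ratio of 2.93 (1.59–5.91) that met the rule for neither side. Its targets lay in the same cells: fibroblast-like cells had 1241 CPM of C1R and 818 CPM of C1S in the caput, against 1955 and 1076 CPM in the corpus.

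SERPINH1, the chaperone of collagen folding, had 71 UMIs in the testis (1.53 CPM), 295 in the caput (22.4 CPM) and 279 in the corpus (67.6 CPM). Fibroblast-like cells held 167 CPM in the caput (176 UMIs) and 159 CPM in the corpus (227 UMIs). COL1A1, a collagen whose chains it folds, had 4259 CPM in caput and 3298 CPM in corpus fibroblast-like cells.

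Between the regions, fibroblast-like cells had close levels of these stromal serpins. The caput-over-corpus ratio was 0.897 (0.810–0.994) for SERPINF1, 1.08 (0.964–1.2) for SERPING1 and 1.05 (0.861–1.29) for SERPINH1. All SERPIN UMIs together gave 1597 CPM (1521–1675) in caput and 1593 CPM (1528–1660) in corpus fibroblast-like cells. Stress genes summed to 3277 CPM in caput and 5279 CPM in corpus fibroblast-like cells. The corpus held 2 fibroblast-like clusters that differed among themselves: SERPINF1 was 861 CPM in cluster 2 and 554 CPM in cluster 1, a ratio of 1.55 (1.36–1.77), and SERPING1 was 610 and 476 CPM, a ratio of 1.28 (1.10–1.49).

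SERPINA3 and SERPINB9, both below 200 UMIs in each library, were also led by fibroblast-like cells, and they are named for that after their values were seen. SERPINA3, alpha-1-antichymotrypsin, had 61.8 CPM in caput (65 UMIs) and 14.7 CPM in corpus fibroblast-like cells (21 UMIs), a ratio of 4.21 (2.54–7.25). SERPINB9, an intracellular inhibitor of granzyme B, had 59.9 CPM in caput (63 UMIs) and 57.4 CPM in corpus fibroblast-like cells (82 UMIs), a ratio of 1.05 (0.740–1.47). In T or NK-like cells, which carry granzymes, SERPINB9 stood at 24.1 CPM in the caput and 22.0 CPM in the corpus.

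SERPINE2, or protease nexin-1, which inhibits thrombin and plasminogen activators, was less clear. It had 194 UMIs in the testis (4.17 CPM), 355 in the caput (27.0 CPM) and 131 in the corpus (31.8 CPM). Fibroblast-like cells had 14.3 CPM in the caput (15 UMIs) and 36.4 CPM in the corpus (52 UMIs), a ratio of 0.392 (0.205–0.707) that met the rule for neither side. The clusters led by very long genes had 44.5 CPM in the caput and 35.5 CPM in the corpus. SERPINI1 (neuroserpin, an inhibitor of tissue plasminogen activator) and SPINK5 (the multidomain Kazal inhibitor of skin kallikreins) were likewise higher in those clusters than in the named caput classes with over 100 cells: SERPINI1 had 59.1 CPM in caput and 64.7 CPM in corpus, and SPINK5 had 41.5 and 38.7 CPM. In the corpus, however, SPINK5 had 46.7 CPM in macrophage-like cells (14 UMIs), and SERPINE2 in fibroblast-like cells was close to its level in those clusters. The clusters led by very long genes have no cell identity.

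**Figure D3:**
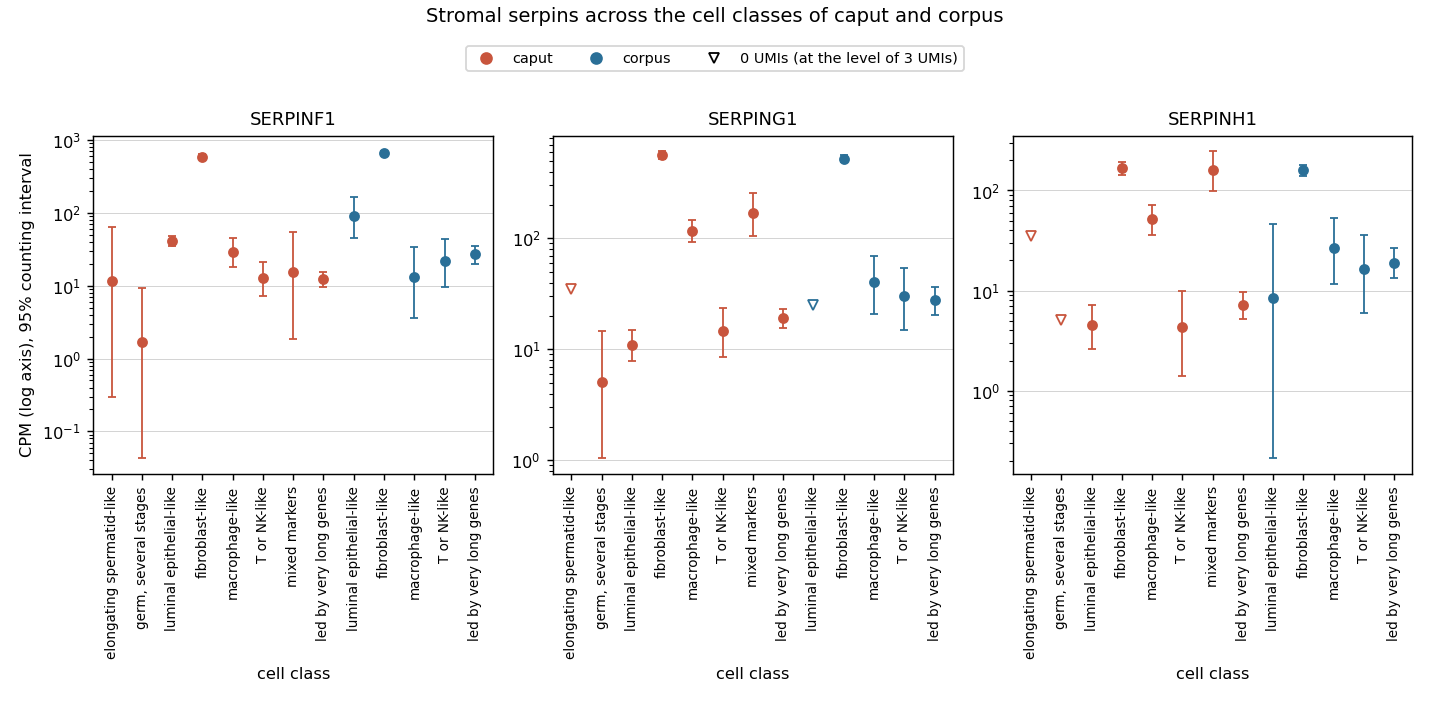
Level in CPM on a log axis of SERPINF1, SERPING1 and SERPINH1 in each caput and corpus class of at least 50 cells, with 95% counting intervals; open triangles mark 0 UMIs, drawn at the level of 3 UMIs. The fibroblast-like points of caput and corpus lie at nearly the same height for all 3 genes.

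Set side by side as whole libraries, the luminal genes were higher in the caput and the stromal serpins higher in the corpus. Caput was called higher for 3 and corpus for 3 of the 16 members tested, and 10 met the rule for neither side; over all features tested 8.8% were called, 7.04% higher in caput and 1.75% higher in corpus. The median log2 ratio was −0.27 for the members and −0.08 for all features tested. Higher in caput were SPINK8 at 20.2-fold (16.5–25), SERPINF2 at 12.5-fold (8.23–20.1) and SPINK2 at 5.83-fold (5.66–6.01). Higher in corpus were SERPINF1 at 3.69-fold (3.37–4.04), SERPING1 at 3.06-fold (2.78–3.37) and SERPINH1 at 3.02-fold (2.55–3.56). Luminal epithelial-like cells were 27.7% of caput and 1.52% of corpus cells, and fibroblast-like cells 7.39% of caput and 32.9% of corpus cells. The lowest total of any deposited barcode was 843 UMIs in the caput and 298 UMIs in the corpus, so these shares also hold the authors' choice of barcodes. Restricted to cells with at least 500 genes, which left 991 corpus cells, SPINK2 had 6356 CPM in caput and 3608 CPM in corpus, a ratio of 1.76 that no longer met the rule.

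Within classes, the called members were SPINK2, SPINK8 and 1 serpin, SERPINA3. In luminal epithelial-like cells SPINK8 alone was called, higher in caput, of 5 members tested, against 2.85% of all features tested, 1.8% higher in caput and 1.05% higher in corpus. In fibroblast-like cells 3 of 8 were called, all higher in caput (SPINK8, SPINK2 and SERPINA3), against 2.29% of all features tested, 1.94% higher in caput and 0.353% higher in corpus. SPINK2 there was 11.9-fold higher (10.6–13.4) and SPINK8 31.9-fold (16.5–70.7). In macrophage-like cells 2 of 4 were called, against 7.14% of all features tested, 5.23% higher in caput and 1.91% higher in corpus. They were SPINK2 at 19.8-fold (14.4–27.9), and SPINK8 with 122 UMIs in caput and 0 in corpus, at least 17.9-fold higher against a floor of 3 UMIs over the class. In T or NK-like cells 2 of 3 were called, against 4.53% of all features tested, 3.74% higher in caput and 0.787% higher in corpus. They were SPINK2 at 18.5-fold (14.5–23.8) and SPINK8 at 31.1-fold (10.5–152), the last on 3 corpus UMIs. As given above, SPINK2 and SPINK8 stood in these caput classes at fractions of their luminal levels similar to those of DEFB119. The luminal markers summed to 1827, 1283 and 1937 CPM in caput fibroblast-like, macrophage-like and T or NK-like cells. In the same corpus classes they summed to 786, 410 and 387 CPM. The part of free RNA in these calls was not tested. SERPINA3 had 1.86 CPM in caput luminal epithelial-like cells, below its 61.8 CPM in caput fibroblast-like cells.

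**Figure D4:**
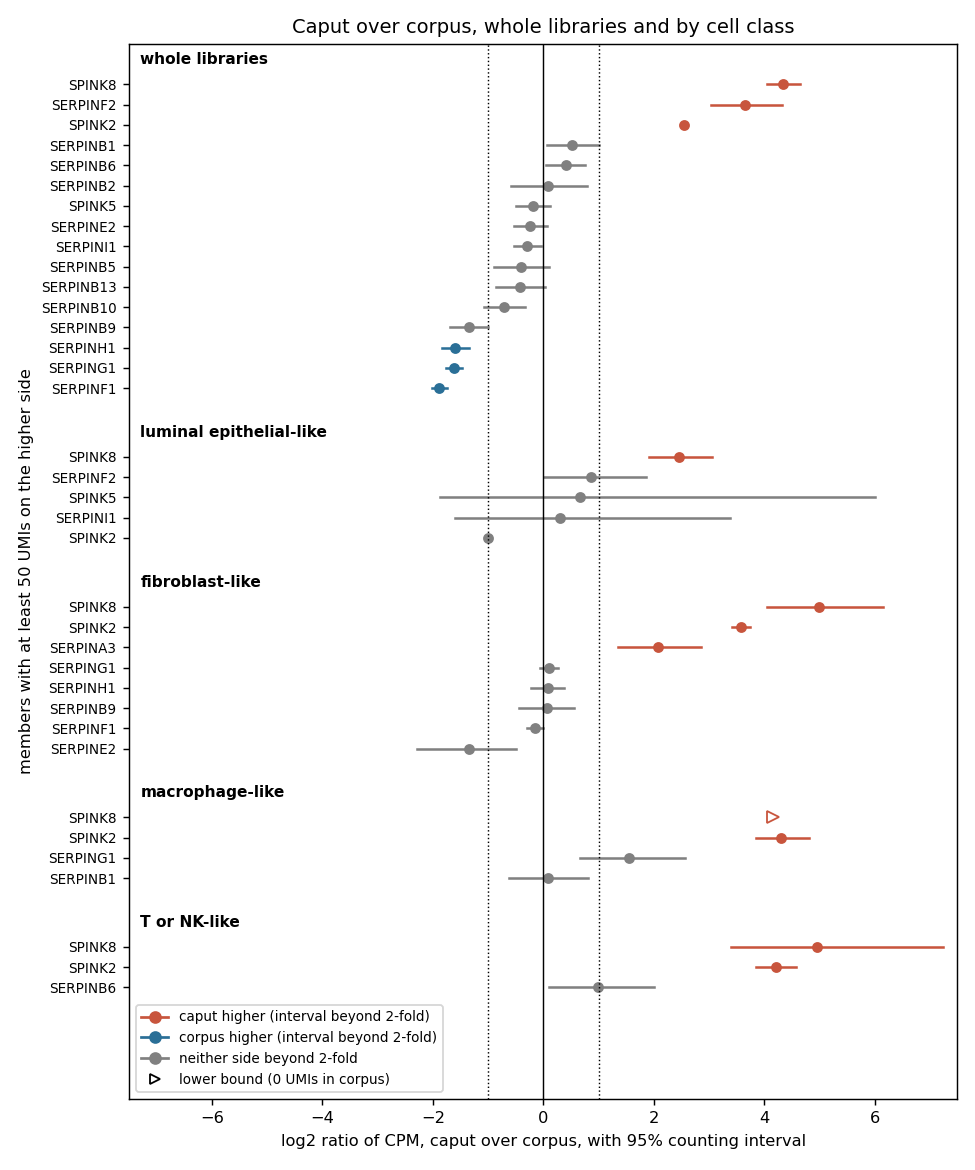
Log2 ratio of CPM, caput over corpus, with 95% counting intervals, for every member whose higher side reached 50 UMIs, in whole libraries and in each class with at least 50 cells in both regions; dotted lines mark 2-fold and the open triangle a lower bound. SERPINF1, SERPING1 and SERPINH1 lie at −1.88, −1.61 and −1.59 in whole libraries but near 0 within fibroblast-like cells, and SPINK2 lies on opposite sides of 0 in luminal epithelial-like cells and in the other classes.

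In the testis, SPINK2 was found in every germ class, and of the 3 named stages its level was highest in late spermatocyte-like and lowest in elongating spermatid-like cells. Its level was 1519 CPM in late spermatocyte-like cells (8698 UMIs), 1415 CPM in the germ cells of unnamed stage (28092 UMIs), 1168 CPM in round spermatid-like cells (17762 UMIs) and 783 CPM in elongating spermatid-like cells (2785 UMIs). The ratio of elongating over round spermatid-like cells was 0.670 (0.644–0.698), and that of round spermatid-like over late spermatocyte-like cells was 0.769 (0.749–0.789). Neither met the rule. The elongating clusters differed among themselves. All SPINK genes together, mostly SPINK2, gave 823 CPM in cluster 6, 610 CPM in cluster 8 and 1111 CPM in cluster 12 (42 cells). The round spermatid-like clusters 0 and 3 had 1096 and 1271 CPM, so the order of the stages did not hold for every cluster. The cluster with fibroblast and T or NK markers, 104 cells, had 119 CPM of SPINK2 (29 UMIs), below every germ class.

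The protease it is known to inhibit, acrosin (ACR), had 203, 205, 252 and 208 CPM in those 4 germ classes in the same order, and ACRBP, the acrosin-binding protein, 1210, 1050, 856 and 729 CPM. ACR was highest in round spermatid-like cells, whereas ACRBP was highest in late spermatocyte-like and lowest in elongating spermatid-like cells. Levels are not compared between these genes, since no transcript length was used. The caput germ cells of several stages had 2355 CPM of SPINK2 (1397 UMIs). There, SPINK8 UMIs were 2.08% (1.39–2.99) of SPINK2 UMIs, below the 7.65% of caput luminal cells, and DEFB119 UMIs were 33.6% of SPINK2 UMIs, against 92.6% in luminal cells. The caput elongating spermatid-like cells had 2689 CPM of SPINK2 (232 UMIs) with SPINK8 at 6.90% (3.88–11.4) of it, an interval that holds the luminal value.

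SERPINB6 and SERPINB1, intracellular serpins without a secretion signal, had the most UMIs of all serpins in the testis library. SERPINB6, an inhibitor of cathepsin G, had 7850 UMIs in the testis (168.7 CPM), 358 in the caput (27.2 CPM) and 85 in the corpus (20.6 CPM). In the testis 52.8% of cells had a SERPINB6 UMI, against 2.87% in the caput and 0.865% in the corpus. These shares are not matched for depth, since median totals were 4675, 1144 and 371 UMIs per cell in those libraries. The gaps between the shares therefore also hold the difference in depth. Its level was 223 CPM in late spermatocyte-like cells, 193 CPM in the germ cells of unnamed stage, 135 CPM in round spermatid-like and 100.3 CPM in elongating spermatid-like cells. In the caput it was highest in the germ cells of several stages, at 179 CPM (106 UMIs), which was 2.74-fold (2.02–3.72) the next class.

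SERPINB1, the leukocyte elastase inhibitor, had 2371 UMIs in the testis (50.9 CPM), 225 in the caput (17.1 CPM) and 49 in the corpus (11.9 CPM). Along the germ classes it had 66.2 CPM in late spermatocyte-like cells (379 UMIs), 64.9 CPM in those of unnamed stage (1289 UMIs), 36.5 CPM in round spermatid-like cells (555 UMIs) and 11.2 CPM in elongating spermatid-like cells (40 UMIs). Elongating over round spermatid-like was 0.308 (0.218–0.425), so round was higher by the rule. Among the named classes of the epididymis its level was highest in macrophage-like cells, at 88.0 CPM in the caput (60 UMIs) and 83.4 CPM in the corpus (25 UMIs). SERPINB6, SERPINB9 and SERPINB1 follow one another in the gene table, and SERPINB9 had 0.902 CPM in the testis library.

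SPINK5 was highest, within the testis, in elongating spermatid-like cells. It had 140 UMIs in the testis (3.01 CPM), 330 in the caput (25.1 CPM) and 118 in the corpus (28.6 CPM). Its testis level was 1.57 CPM in late spermatocyte-like cells (9 UMIs), 1.01 CPM in those of unnamed stage (20 UMIs), 1.58 CPM in round spermatid-like cells (24 UMIs) and 21.1 CPM in elongating spermatid-like cells (75 UMIs). Elongating over round spermatid-like was 13.4 (8.34–22.1). Among the elongating clusters it was 54.9 CPM in cluster 8, 16.0 CPM in cluster 6 and 3.8 CPM in cluster 12.

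SPINK4 and SERPIND1 stayed low throughout. SPINK4, known from goblet cells of the gut, had 260 UMIs in the testis (5.59 CPM), 93 in the caput (7.07 CPM) and 45 in the corpus (10.9 CPM), and lay between 4.34 and 6.55 CPM in the 4 germ classes. SERPIND1, heparin cofactor II, a thrombin inhibitor, had 307 UMIs in the testis (6.60 CPM), 38 in the caput (2.89 CPM) and 16 in the corpus (3.88 CPM), and 5.34 to 8.21 CPM in the germ classes.

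**Figure D5:**
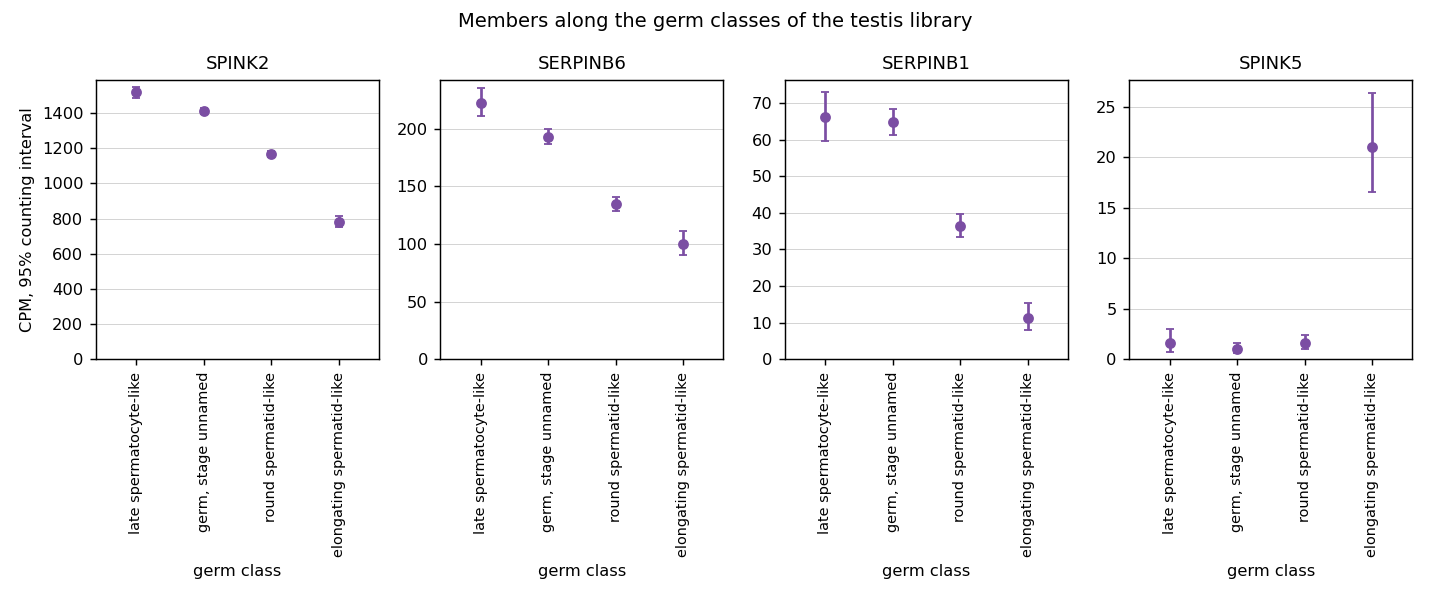
Level in CPM, with 95% counting intervals, of SPINK2, SERPINB6, SERPINB1 and SPINK5 in the 4 germ classes of the testis library, with the class of unnamed stage drawn second and the 3 named stages in order from late spermatocyte-like to elongating spermatid-like, each panel with its own scale from 0. SPINK2, SERPINB6 and SERPINB1 are lowest in elongating spermatid-like cells, where SPINK5 is highest at 21.1 CPM.

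Of the 5 members tested between elongating and round spermatid-like cells, SPINK5 was called higher in elongating and SERPINB1 higher in round, and 3 met the rule for neither side, against 10.9% of all features tested called, 8.78% higher in elongating and 2.14% higher in round. Between round spermatid-like and late spermatocyte-like cells none of the 3 tested members was called, against 46.7% of all features, 34.8% higher in round spermatid-like and 11.9% higher in late spermatocyte-like cells. Summed over the family, serpins gave 316, 282, 197 and 137 CPM and SPINK genes 1527, 1424, 1175 and 811 CPM in late spermatocyte-like cells, those of unnamed stage, round and elongating spermatid-like cells. By cluster the serpin sums overlapped, with 135, 125 and 191 CPM in elongating clusters 6, 8 and 12. Round clusters 0 and 3 had 173 and 225 CPM. Of the listed genes of the serine protease family, 19 were tested between elongating and round spermatid-like cells. Of these 4 were higher in elongating, 1 in round and 14 in neither, and whether the members inhibit their products was not tested. The called ones included PRSS37 with 119.7 CPM in elongating and 1.51 CPM in round spermatid-like cells, and KLK4 with 114 and 8.55 CPM. Of the acrosome genes 18 were tested, with 4 higher in elongating, 0 in round and 14 in neither.

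Between whole libraries, testis over caput had 2 members higher in testis, 21 higher in caput and 3 in neither, of 26 tested; over all features tested 73.1% were called, 18.9% higher in testis and 54.2% higher in caput. The members' median log2 ratio was −3.84, against −1.69 for all features tested. The testis-high members were SERPINB6 at 6.20-fold (5.57–6.91) and SERPINB1 at 2.98-fold (2.60–3.43). SPINK2 was higher in caput by 4.96-fold (4.91–5.02), SPINK8 by 465-fold (349–634) and SERPINF1 by 20.3-fold. Testis over corpus gave the same 2 members higher in testis, SERPINB6 at 8.19-fold (6.61–10.3) and SERPINB1 at 4.29-fold (3.23–5.82), 11 higher in corpus and 3 in neither, of 16 tested, against 70.8% of all features, 23.6% higher in testis and 47.1% higher in corpus. Both calls of SERPINB1 were lost without the clusters led by very long genes, at log2 ratios of 1.08 over caput and 1.33 over corpus. SPINK2 was at 1.17 (1.14–1.21) in testis over corpus, and its side changed with the processing: testis was higher under median-of-ratios scaling (log2 2.15), and corpus in cells with at least 500 genes (log2 −1.49). These comparisons share the testis library.

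Stromal serpins lay between 0 and 2.53 CPM in the germ classes of the testis and were higher in its clusters with somatic markers. In the cluster with fibroblast and T or NK markers SERPING1 had 487 CPM (119 UMIs), SERPINF1 229 CPM (56 UMIs) and SERPINH1 147 CPM (36 UMIs). In the cluster with fibroblast and germ markers, 95 cells, SERPING1 had 100.8 CPM and SERPINF1 61.7 CPM.

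Other genes of the protease systems were set beside the members. In luminal epithelial-like cells 18 other extracellular inhibitors were tested, of which 12 met the rule for neither side, 5 were higher in corpus and 1 in caput, against 1.05% of all features tested higher in corpus and 1.8% higher in caput. EPPIN, a sperm-coating inhibitor with Kunitz and WAP domains, had 921 CPM in caput and 318 CPM in corpus luminal cells. SPINT4 had 0 UMIs in caput and 1556 CPM in corpus luminal cells (186 UMIs), at least 1951-fold lower in caput against the floor of 3 UMIs, and WFDC13 had 3.99 CPM in caput and 820 CPM in corpus. In fibroblast-like cells 20 genes of collagens and of collagen folding and secretion were tested, and 8 of the serine protease family. None of them was called on either side, against 2.29% of all features. The 4 other inhibitors called there, all higher in caput, were WFDC11, EPPIN, WFDC9 and SPINT2, of 18 tested. WFDC11, EPPIN and WFDC9 were called higher in caput in macrophage-like and T or NK-like cells too. EPPIN had 103 CPM in caput fibroblast-like, 82.1 CPM in macrophage-like and 139 CPM in T or NK-like cells, against 921 CPM in luminal epithelial-like cells. The part of free RNA was not tested. Counts of these inhibitors outside the luminal class, as those of SPINK2 and SPINK8, are not read as expression by those cells.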

How the data were processed

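Dissociated cells of donkey testis, caput and corpus were profiled as droplet libraries (DNBelab C4), 1 library per tissue. The deposited matrices hold UMI counts per gene and cell barcode, written with PISA 0.12 per the file headers. Cell Ranger 2.1.1 is named in the submitters' processing notes. Which aligner and build were used was not given in the sources used here. Barcodes are running numbers, so the 7441, 7339 and 8957 names that testis and caput, testis and corpus, and caput and corpus share say nothing of shared cells.

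Cells with under 200 genes were removed, which were 2 cells of the corpus. Doublets called from simulated doublets were removed too, 125 in the testis, 14 in the caput and 17 in the corpus. The doublet shares in the caput (0.148%) and corpus (0.177%) are too low for the caller to be relied on there, and doublets may remain. Each library was clustered on 2000 variable genes without the members (30 principal components, 15 neighbours, Leiden resolution 1.0; leidenalg 0.10.2, scikit-learn 1.9.0, numpy 2.4.6). Naming thresholds were set with the clusters in view. Summed counts gave CPM, with exact Poisson intervals, exact conditional binomial intervals for ratios (scipy 1.17.1) and Clopper-Pearson intervals for shares; log2 ratios add 0.5 UMI. The procedure was tested on simulated data. Members with at least 200 UMIs in a library are described individually; from each fixed list the text may name up to 4 genes with the largest ratios and genes a member's result turns on. Members and lists were chosen with earlier results of these data known. Names of neighbouring genes come from RefSeq's gene table (EquAss-T2T_v2), where 30 of 32 members matched by symbol. No protein features were computed. Alternatives were another scaling, other UMI minimums, a 4-fold rule, thinning, stricter cell filters, other clusterings and left-out clusters.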

Additional observations from a re-analysis of the deposited data

Results flagged for a closer look

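SPINK2 counts moved in opposite directions between caput and corpus in different cell classes, with every counting interval clear of 0. Its log2 ratio of caput over corpus was 4.29 in macrophage-like, 4.20 in T or NK-like and 3.57 in fibroblast-like cells, against −0.996 in luminal epithelial-like cells. In those 3 caput classes DEFB119, a gene of the luminal cells, stood at 15.1% to 19.6% of its luminal level and the luminal markers summed to 1283 to 1937 CPM. The part of free RNA was not tested, and the SPINK2 counts there are not read as expression by those cells. With 1 library per region the difference between classes was not tested.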

How the results depend on the processing

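No member called with the settings of the report was called on the other side under an alternative; SPINK2 in testis over corpus, not called there, was called on opposite sides by 2 alternatives. Among counts of called members, caput over corpus in whole libraries gave 3 calls with the 4-fold rule, luminal epithelial-like cells 0 and elongating over round spermatid-like cells 1. Testis over corpus gave 25 calls with a minimum of 10 UMIs, 26 with no minimum, 5 with at least 500 genes per cell and 7 without the clusters led by very long genes. With the settings of the report it gave 13 of 16 tested, where 70.8% of all features tested were called. Numbers of members tested and shares of all features called under the alternatives are not given here. These counts are therefore not read as a result about the members. Median-of-ratios scaling moved the median of all features by −0.21 (log2) for caput over corpus, −1.14 for testis over caput and −1.92 for testis over corpus, and by −0.46 to 0.06 within classes. Under it SERPIND1 was called higher in testis than in caput and corpus, and SPINK2 higher in testis than in corpus (log2 2.15), while with at least 500 genes per cell it was called higher in corpus (log2 −1.49). The causes were not tested. Without the clusters led by very long genes SERPINB1 lost its call in testis over caput (log2 1.08) and testis over corpus (log2 1.33), and SERPINB9 was called higher in corpus than in caput (log2 −1.48), as it was not with all clusters. The caput-over-corpus log2 ratio of SPINK2 in luminal cells lay between −1.02 and −0.82 in all alternatives run. Over all results and settings, 690 values stayed within the counting interval or 1.5 times the count and 112 moved. The corpus luminal class limits what can be seen, since 1 UMI there is 8.37 CPM. No paired analysis was possible because each tissue has 1 library, and no replicate could be left out.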

Other observations

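LOC106839832, an unnamed gene that the gene table places between SPINK7 and SPINK1, had 957.5 CPM in caput luminal epithelial-like cells (3601 UMIs) and 16.7 CPM in corpus luminal epithelial-like cells (2 UMIs). HOPX, the neighbour of SPINK2 in the gene table, had 1726 CPM in caput and 410 CPM in corpus luminal epithelial-like cells. 2 further features carry family symbols in the gene table but not in the files and were not counted as members: LOC106825405 (SERPINA6) with 12 UMIs in the testis, 73 in the caput and 22 in the corpus, and LOC106837707 (SERPINE3) with 33, 174 and 48 UMIs.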
